A study of Homo sapiens with 18 samples.

Results

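Messenger RNA for matrix metalloproteinases (MMPs) and for the tissue inhibitors that block them (TIMPs) was measured in MCF-10A cells deficient in nucleotide excision repair (dNER). The set was chosen by name and by no rule on measured values, but with earlier results of these data known. It held MMP1, MMP2, MMP3, MMP7, MMP9, MMP10, MMP14, TIMP1, TIMP2 and TIMP3. Of these 10 genes, 8 (5 MMPs and 3 TIMPs) were analysed among the 22031 genes listed, and MMP1 and MMP3 were not analysed here. MCF-10A is a non-malignant human breast epithelial cell line of basal character. Each dNER line, shXPA, shXPC, shERCC4, shERCC5 or shERCC6, stably carried an shRNA against the repair gene in its name, and shCON carried a non-target shRNA. All 6 lines, control included, were made with lentivirus and puromycin selection, and grew in medium with EGF, insulin, hydrocortisone, cholera toxin and horse serum. Each line had 3 independent biological replicates, so that 15 dNER libraries stood against 3 of shCON. Because each gene was targeted by 1 shRNA and there was 1 control line, an effect of the targeted gene, of the shRNA and of the line cannot be told apart.

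MMPs are zinc-dependent endopeptidases that cut proteins of the extracellular matrix and of the cell surface. They are made as inactive zymogens, and TIMPs bind the active site and inhibit the mature enzymes. In the breast, the balance of both is known for its part in duct branching, in remodelling after lactation and in invasion through the basement membrane. Transcript levels report neither zymogen activation nor protease activity.

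The members differ in substrate and place. MMP2 and MMP9 are the gelatinases, which degrade denatured collagen and collagen IV of basement membranes. MMP7, matrilysin, is a small secreted enzyme of epithelia that also sheds surface proteins. MMP10 is a stromelysin, and MMP14 is anchored in the plasma membrane, where MMP14 and TIMP2 take part in activating the MMP2 zymogen. TIMP1 and TIMP2 are soluble, whereas TIMP3 is held in the matrix and also inhibits ADAM proteases.

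MMP7 and MMP10 lie in the MMP gene cluster of chromosome 11, on the minus strand, and their promoters are shown because they share an arrangement of motifs while their transcripts differed widely in level. MMP7 spans chr11:102520508-102530753 and MMP10 spans chr11:102770503-102780628 (GENCODE, GRCh38). The stretches below run 5′ to 3′ from 110 to 11 bases before the transcription start (RefSeq, GRCh38.p14; chr11:102530758-102530857 for MMP7 and chr11:102780639-102780738 for MMP10). Capitals mark the AP-1 motif TGANTCA and the TATA box TATAAA.
MMP7: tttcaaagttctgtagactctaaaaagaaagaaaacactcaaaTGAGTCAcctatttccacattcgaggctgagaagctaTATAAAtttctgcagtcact
MMP10: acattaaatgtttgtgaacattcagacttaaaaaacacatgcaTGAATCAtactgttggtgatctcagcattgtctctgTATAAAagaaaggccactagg
The AP-1 motif began 67 bases before the start in both promoters, and the TATA box began 30 bases before it in MMP7 and 31 bases before it in MMP10. MMP7 also held the ETS motif AGGAAGT on the opposite strand, 146 bases before the start. Over the 250 bases before the start, searched on both strands, 6.57% of 35116 promoters held TGANTCA, 10.7% held TATAAA, 7.01% held AGGAAGT and 17.5% held the E-box CACCTG. The promoters of MMP14, TIMP1 and TIMP3, the other members with an entry, held none of these 4 motifs. In MMP14 and TIMP1, GENCODE exons of the gene itself reach into the searched bases, so this depends on the start chosen.

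The values are TPM, which are shares of a library corrected for transcript length and so can be compared between genes. Libraries summed to 999214 to 999484 TPM, listed 13845 to 14893 genes at 1 TPM or more, and keep no read depth, so precision rests on the spread of 3 replicates. The first shERCC4 replicate stood apart, with a size factor (median ratio to the average library) of 0.773 against 1.02 and 1.01 in the others of that line, and with 26.5% of its TPM in the single entry CTD-2328D6.1. The change of each member in shERCC4 cells against shCON is therefore given with and without it. Each targeted gene was lower in every library of its own line than in any of shCON, at 40.8% (ERCC4) to 67.6% (XPA) of the shCON mean. The log2 fold change of XPA, -0.54, fell short of the fold of 1.5 used below. In shXPA cells the median over all genes was -0.29, and 45.4% of all genes lay below shCON in every library. The other targeted genes passed that fold, with -0.94 (ERCC5) to -1.22 (ERCC4). All 10 basal epithelial markers reached 1 TPM in every line. So did GATA3, FOXA1, KRT8 and KRT18 of 5 luminal markers analysed, and PECAM1 of 3 endothelial markers analysed. Of 7 fibroblast markers analysed, COL1A1 and DCN did, with the list summing to 86.0 to 179 TPM in dNER libraries and 214 to 230 TPM in shCON libraries, and COL3A1 or LUM was listed at 0 in 3 of the dNER lines. Of 7 leukocyte markers 3 or 4 reached 1 TPM, summing to 16.7 to 48.2 TPM in dNER libraries and 39.0 to 52.6 TPM in shCON libraries. MPO was listed at 0 in all dNER lines and had a mean of 0.381 TPM in shCON. Means of ITGAM and LYZ went the other way. ITGAM had 0.086 TPM in shCON against 0.206 (shERCC4) to 6.5 TPM (shXPA), and reached 1 TPM in every dNER line but shERCC4. LYZ had 0.0185 TPM in shCON against 0.058 (shERCC6) to 0.76 TPM (shERCC5). The part of these differences in the results below was not tested. In bulk RNA, fewer cells that express a gene and less RNA per cell cannot be told apart.

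Differences were tested with limma on log2(TPM + 0.5) over the 16382 genes that reached 1 TPM in 3 or more libraries. A gene was called at a q (false discovery rate by Storey's method) under 0.05 and a fitted fold above 1.5. The added 0.5 makes fitted changes of low genes smaller than the ratio of their TPM. The median over all genes tested was below 0 in each dNER line, with log2 fold changes between -0.42 in shXPC and -0.24 in shERCC6, and -0.33 for the mean of the 5 lines. Scaling the libraries by median of ratios brought that last median to 0.01, and calls that depend on this scaling are named with each member.

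Of the 8 genes analysed, 7 entered the test and MMP10 did not. In shXPA cells 4 of them were lower and 1 higher than in shCON cells, where 30.9% and 11.9% of all genes were called lower and higher. In shXPC cells 4 were lower and 1 higher, beside 38.0% lower and 9.89% higher of all genes. In shERCC4 cells 6 were lower and 0 higher, beside 30.9% lower and 4.38% higher, and without the first shERCC4 replicate 5 were lower. There were 3 lower and 0 higher in shERCC5 cells (28.3% and 9.97% of all genes) and 4 lower and 0 higher in shERCC6 cells (19.7% and 6.52%). MMP9 passed the filter on low values only through the shCON libraries, so these counts account for the members and do not support a shared direction. Where all libraries of a line are said to lie below those of shCON, this held for 45.4% (shXPA), 50.8% (shXPC), 46.2% (shERCC4), 46.6% (shERCC5) and 40.5% (shERCC6) of all genes. The share lying above shCON was 16.2% (shXPA), 12.8% (shXPC), 5.19% (shERCC4), 15.1% (shERCC5) and 13.9% (shERCC6). Statements on overlap of libraries are for TPM as deposited, and overlap was not examined after scaling.

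**Figure D1:**
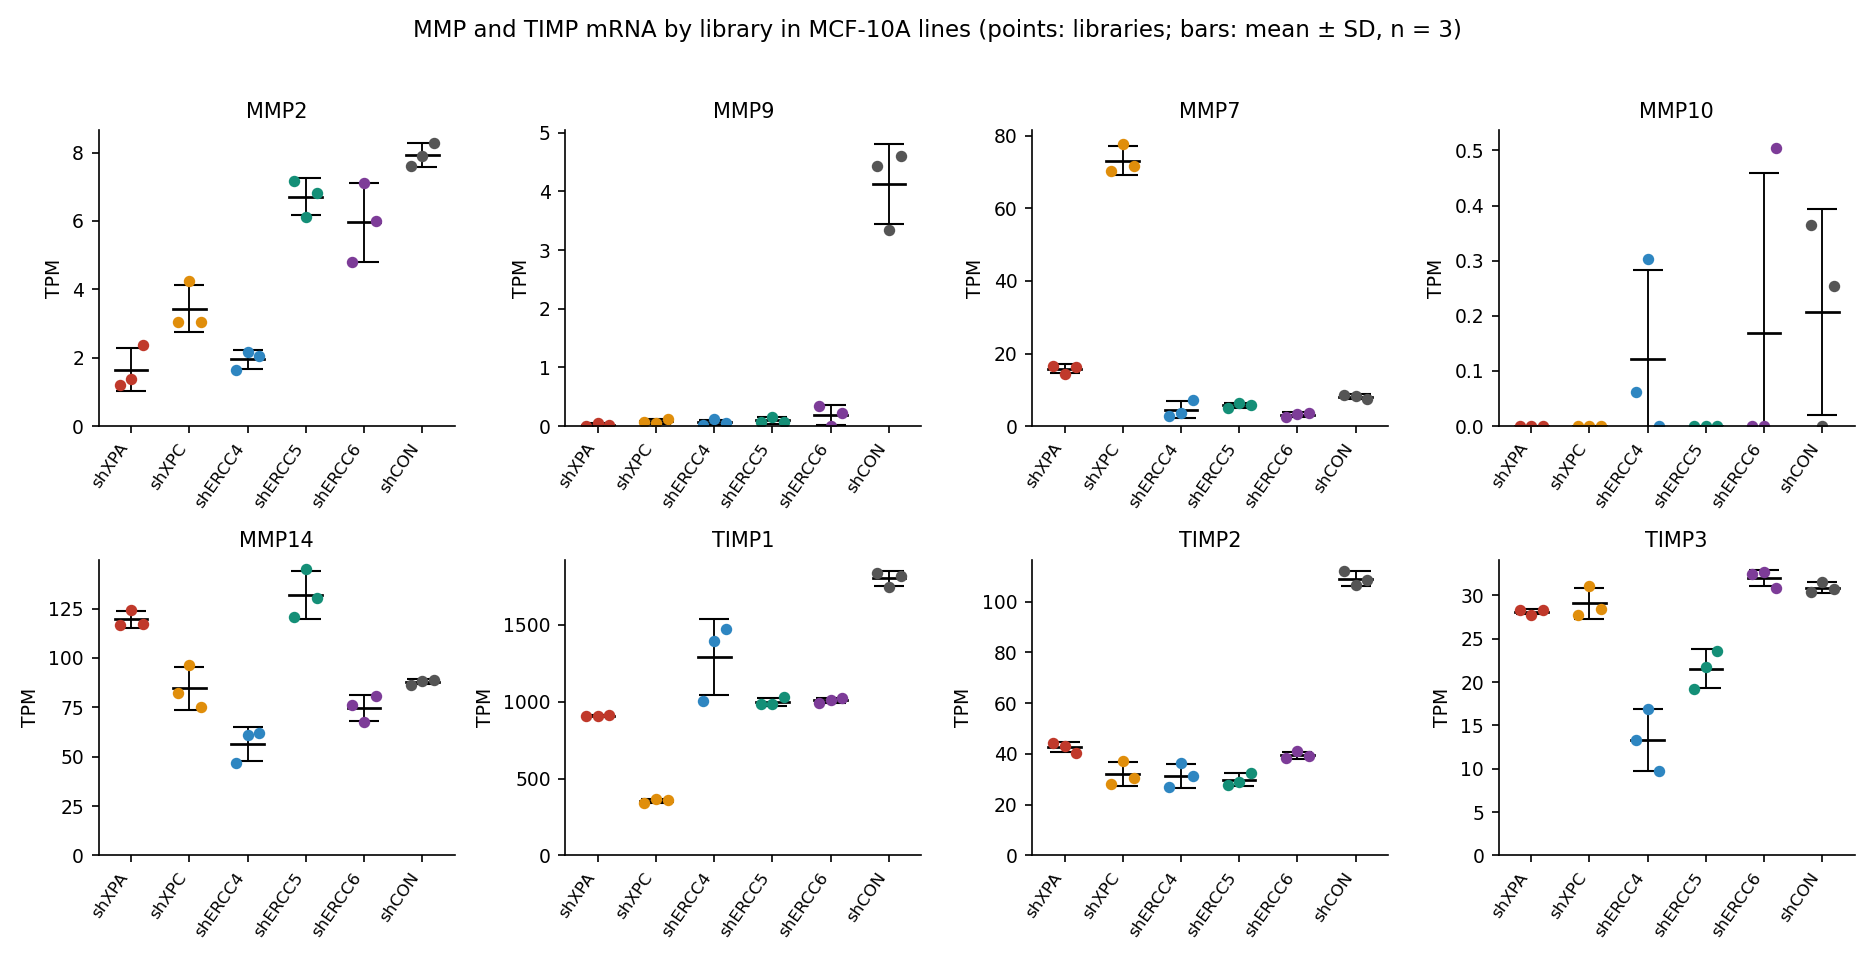
TPM of the 8 members analysed (vertical axes, each from 0) in the 5 dNER lines and shCON; points are libraries, and bars give the mean and SD of 3 replicates. MMP9 and TIMP2 stand clear of all dNER libraries in shCON, MMP7 is highest in shXPC at 70.2 to 77.7 TPM, and no library reaches 1 TPM of MMP10.

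The gelatinase MMP9 (chr20:46008908-46016561, plus strand) was near 0 in every dNER line. It had 0, 0.0481 and 0.0234 TPM in shXPA cells, 0.0748, 0.0452 and 0.126 TPM in shXPC cells, and 0.0193, 0.114 and 0.0544 TPM in shERCC4 cells. It had 0.0637, 0.160 and 0.0644 TPM in shERCC5 cells and 0.342, 0 and 0.228 TPM in shERCC6 cells, against 4.43, 3.35 and 4.59 TPM in shCON cells. All 15 dNER libraries thus lay under 1 TPM and all 3 shCON libraries above it, so that MMP9 counted as expressed in shCON alone. As a description, the fitted log2 change lay between -3.13 ± 0.29 (SE) in shXPA cells and -2.77 ± 0.29 in shERCC6 cells, and in shERCC4 cells it was -2.98 without the first replicate. MMP9 is counted as lower in each line, but because the filter let it in only through shCON its direction was fixed by that filter and no q is given. With any 1 shCON library left out, too few libraries reached 1 TPM and MMP9 was not tested. MMP9 belongs to a signature that the study chose on these libraries, so its level is not independent evidence either. No dNER line was called different from the other 4 in MMP9, and neighbours in the order of their means overlapped. Its exons overlap those of the antisense gene SLC12A5-AS1, and whether strand was used in counting is not given in the sources used here.

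The second gelatinase, MMP2 (chr16:55389700-55506691, plus strand), was lower in only some lines. Its level was 1.21, 1.38 and 2.37 TPM in shXPA cells, 3.04, 4.24 and 3.04 TPM in shXPC cells, and 1.64, 2.16 and 2.06 TPM in shERCC4 cells. It was 7.18, 6.12 and 6.83 TPM in shERCC5 cells and 4.79, 7.10 and 6.0 TPM in shERCC6 cells, against 7.59, 7.89 and 8.28 TPM in shCON cells. As deposited, all dNER libraries lay under those of shCON, as they did for 24.5% of all genes tested, but the shERCC5 and shERCC6 libraries came close to them. MMP2 was called lower in shXPA (log2 fold change -2.0 ± 0.20, q = 9.91e-08), shXPC (-1.11 ± 0.20, q = 4.52e-05) and shERCC4 cells (-1.79 ± 0.20, q = 9.17e-07; -1.69 without the first replicate, still called). It was not called in shERCC5 (-0.23 ± 0.20, q = 0.129) or shERCC6 cells (-0.40 ± 0.20, q = 0.0516), and after scaling the sign turned in shERCC5 cells, to 0.10. Each dNER line was also set against the average of the remaining 4. MMP2 was higher in shERCC5 (1.10 ± 0.16) and shERCC6 cells (0.88 ± 0.16) and lower in shXPA (-1.12 ± 0.16) and shERCC4 cells (-0.85 ± 0.16), and these differences passed the test. Of all genes, 19.1% passed it for shXPA, 13.0% for shXPC, 12.9% for shERCC4, 6.28% for shERCC5, 18.2% for shERCC6 and 37.4% for at least 1 line.

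Matrilysin, MMP7, moved in both directions, which 2.55% of all genes did. It had 16.6, 14.4 and 16.4 TPM in shXPA cells and 70.2, 77.7 and 71.6 TPM in shXPC cells. In shERCC4 cells it had 2.80, 3.64 and 7.12 TPM, in shERCC5 cells 5.06, 6.38 and 5.85 TPM, and in shERCC6 cells 2.48, 3.28 and 3.74 TPM, against 8.57, 8.40 and 7.36 TPM in shCON cells. As deposited, the shXPA and shXPC libraries were all above shCON and those of the other 3 lines all below it, with no overlap. The order was shXPC, shXPA, shCON, shERCC5, shERCC4 and shERCC6, and only the last 3 overlapped with their neighbours. Overlap was not examined after scaling, where the shERCC5 change was -0.13. MMP7 was called higher in shXPC (3.10 ± 0.22, q = 2.5e-09) and shXPA cells (0.92 ± 0.22, q = 0.000646), and lower in shERCC6 (-1.24 ± 0.22, q = 0.000158) and shERCC4 cells (-0.87 ± 0.22, q = 0.00133). In shERCC5 cells it was not called (-0.46 ± 0.22, q = 0.0325), since the fold was 1.38. The shERCC4 value was -0.61 without the first replicate (q = 0.0102, still called) and -0.48 after scaling, where it was not called.

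The direct test of shXPC cells against the other 4 dNER lines gave a log2 difference of 3.51 ± 0.17 for MMP7, a level of 73.2 ± 3.97 TPM (SD, n = 3). With it, MMP7 made up 45.5 ± 2.13% of the summed TPM of the 5 MMPs in shXPC cells, against 7.50 ± 0.68% in shCON cells. The shares were 11.6 ± 1.11% in shXPA cells and 3.76 ± 0.69% to 6.97 ± 2.63% in the other lines. MMP7 also differed from the other dNER lines in shXPA (0.79 ± 0.17), shERCC4 (-1.45 ± 0.17), shERCC5 (-0.94 ± 0.17) and shERCC6 cells (-1.92 ± 0.17), each past the test.

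MMP10, whose promoter is shown above beside that of MMP7, was not expressed by the 1 TPM rule. It was listed at 0 in all libraries of shXPA, shXPC and shERCC5 cells. It had 0.0622, 0.304 and 0 TPM in shERCC4 cells and 0, 0 and 0.505 TPM in shERCC6 cells, against 0.365, 0 and 0.255 TPM in shCON cells. The lines overlapped throughout, and no test or fold is given.

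Membrane-anchored MMP14 (chr14:22836557-22849027, plus strand) was the most abundant of the 5 MMP members in the mean of each line. It had 117, 124 and 117 TPM in shXPA cells, 82.0, 96.6 and 75.2 TPM in shXPC cells and 46.7, 60.9 and 61.9 TPM in shERCC4 cells. In shERCC5 cells it had 121, 145 and 130 TPM and in shERCC6 cells 76.0, 67.4 and 80.6 TPM, against 86.5, 88.1 and 88.9 TPM in shCON cells. The shERCC5 and shXPA libraries overlapped each other and lay above all of shCON, the shXPC libraries overlapped shCON, and the shERCC6 and shERCC4 libraries lay below it. MMP14 was called only in shERCC4 cells (-0.64 ± 0.12, q = 9.49e-05), and this call was lost without the first shERCC4 replicate (-0.51, fold under 1.5) and after scaling (-0.22). In shERCC5 cells the q was 0.000193 but the fold, 1.496, fell just short (log2 0.58 ± 0.12). It was called there without the first shERCC5 replicate (0.64), without the third (0.59) or without the third shCON replicate (0.59), and after scaling (0.93). In shXPA cells the log2 change was 0.44 ± 0.12 (q = 0.00132, fold 1.36), and 0.81 after scaling, where it was called. In shXPC cells it was -0.06 ± 0.12 (q = 0.201), and 0.44 after scaling, at a fold of 1.355 that was not called. Against the other 4 dNER lines, MMP14 was higher in shERCC5 cells (0.71 ± 0.09) and lower in shERCC4 cells (-0.82 ± 0.09).

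**Figure D2:**
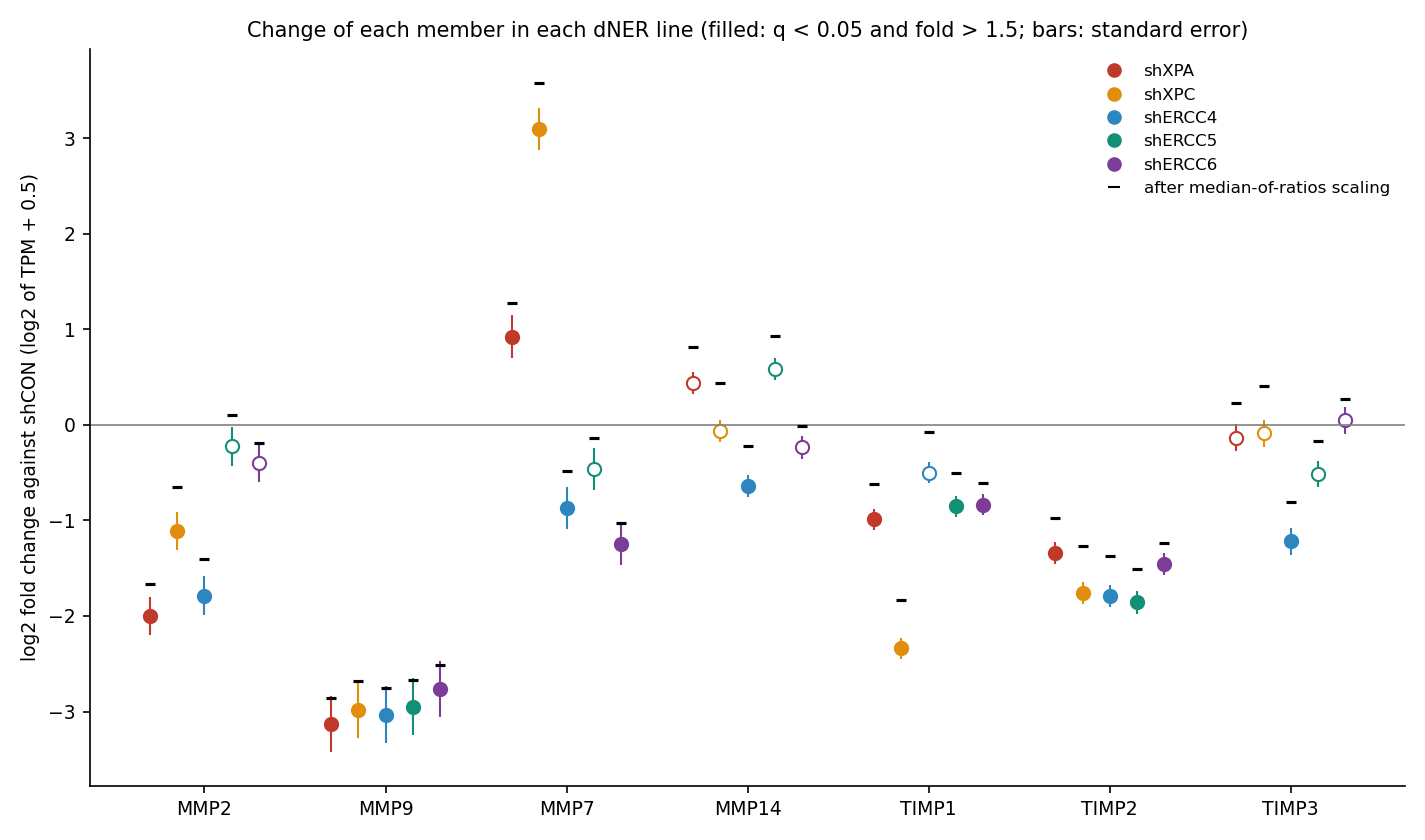
Log2 fold change of the 7 members tested in each dNER line against shCON (vertical axis, log2 of TPM + 0.5), with standard errors as bars; filled points passed the test, open ones did not, and black dashes are the values after median-of-ratios scaling. TIMP2 lies below 0 in all 5 lines under both scalings, MMP7 spreads from 3.10 in shXPC to -1.24 in shERCC6, and scaling lifts every value. MMP9 also lies below 0, but it entered the test only through shCON, so its direction was fixed by the filter.

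TIMP1 (chrX:47582313-47586789, plus strand) was the most abundant of the 8 members in every line. Its level was 907, 906 and 911 TPM in shXPA cells, 342, 369 and 358 TPM in shXPC cells and 1006, 1393 and 1471 TPM in shERCC4 cells. It was 982, 982 and 1027 TPM in shERCC5 cells and 992, 1012 and 1025 TPM in shERCC6 cells, against 1838, 1749 and 1818 TPM in shCON cells. As deposited, every dNER library lay below every shCON library, with shXPC lowest of all lines. TIMP1 was called lower in shXPC (-2.34 ± 0.11, q = 3.04e-11), shXPA (-0.99 ± 0.11, q = 3.47e-07), shERCC5 (-0.85 ± 0.11, q = 2.99e-06) and shERCC6 cells (-0.83 ± 0.11, q = 1.08e-05). After scaling, the shERCC5 change was -0.50, at a fold of 1.42 that was not called. In shERCC4 cells the q was 0.000455 but the fold was 1.42 (-0.50 ± 0.11), with -0.33 when the first replicate was left out, -0.60 when the third was left out, which was called, and -0.08 after scaling. The difference of shXPC cells from the other 4 dNER lines was -1.54 ± 0.09, and that of shERCC4 cells was 0.75 ± 0.09.

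TIMP2 (chr17:78852977-78925387, minus strand) was lower in all 5 lines, as were 9.53% of all genes tested. It had 44.3, 43.3 and 40.4 TPM in shXPA cells, 28.2, 37.3 and 30.5 TPM in shXPC cells and 26.9, 36.3 and 31.2 TPM in shERCC4 cells. It had 27.6, 29.1 and 32.6 TPM in shERCC5 cells and 38.3, 41.0 and 39.0 TPM in shERCC6 cells, against 112, 106 and 108 TPM in shCON cells. The 15 dNER libraries, at 26.9 to 44.3 TPM, lay far below the 3 of shCON. TIMP2 was called lower in every line, with log2 changes between -1.34 ± 0.12 in shXPA cells (q = 1.61e-08) and -1.86 ± 0.12 in shERCC5 cells (q = 1.08e-09). After scaling these lay between -0.97 and -1.51 and were called again in all 5 lines, and the shERCC4 change was -1.68 without the first replicate, still called. No dNER line was called different from the other 4. Its exons overlap those of CEP295NL, on the same strand, and of the antisense gene AC022966.1, for which no level was taken.

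TIMP3 (chr22:32801701-32863043, plus strand) was called lower in 1 line, shERCC4. It had 28.3, 27.8 and 28.3 TPM in shXPA cells, 27.7, 31.1 and 28.4 TPM in shXPC cells and 13.3, 16.9 and 9.69 TPM in shERCC4 cells. It had 19.2, 21.8 and 23.6 TPM in shERCC5 cells and 32.4, 32.7 and 30.9 TPM in shERCC6 cells, against 30.4, 31.6 and 30.8 TPM in shCON cells. The shERCC6 and shXPC libraries overlapped shCON, while those of shXPA, shERCC5 and shERCC4 lay below it. The change in shERCC4 cells was called (-1.22 ± 0.14, q = 1.21e-06), also without the first replicate (-1.24) and after scaling (-0.81). In shERCC5 cells the q was 0.00201 at a fold of 1.43 (-0.51 ± 0.14), which was not called. The changes in shXPA (-0.13 ± 0.14, q = 0.147), shXPC (-0.09 ± 0.14, q = 0.184) and shERCC6 cells (0.05 ± 0.14, q = 0.32) were not called, and those of shXPA and shXPC turned positive after scaling, at 0.23 and 0.41. The shERCC4 line also differed from the other 4 dNER lines (-1.05 ± 0.11). TIMP3 lies within SYN3, on the opposite strand and without shared exons.

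For the mean of the 5 lines against shCON, 4 members were called lower and 0 higher, beside 28.6% and 7.84% of all genes. One of them, MMP9 (-2.97 ± 0.23), entered the test only through shCON, so its direction was fixed by the filter. The others were TIMP2 (-1.64 ± 0.09, q = 1.08e-10), MMP2 (-1.10 ± 0.16, q = 3.7e-06) and TIMP1 (-1.10 ± 0.09, q = 5.64e-09). The q of this mean rests on the spread within lines, not between them. MMP14 (0.02 ± 0.09), MMP7 (0.29 ± 0.17) and TIMP3 (-0.38 ± 0.11) were not called, although after scaling MMP7 was called higher (0.64).

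Sums over members, and ratios of these within a library, are given as a description with no test. The ratios do not depend on the scaling between libraries, but the sums do. The 5 MMPs summed to 137 ± 2.90 TPM in shXPA, 161 ± 15.2 in shXPC, 63.2 ± 10.5 in shERCC4, 145 ± 12.3 in shERCC5 and 84.2 ± 6.68 in shERCC6 cells, against 108 ± 1.05 TPM in shCON cells (SD, n = 3 each). The 3 TIMPs summed to 979 ± 1.35 TPM in shXPA, 417 ± 19.4 in shXPC, 1335 ± 252 in shERCC4, 1049 ± 30.4 in shERCC5 and 1081 ± 16.7 in shERCC6 cells, against 1941 ± 48.6 TPM in shCON cells. MMP14 made up 52.4% of the MMP sum in shXPC cells and 87.2% to 91.3% in the other dNER lines, against 81.2% in shCON cells, and TIMP1 made up 85.4% to 96.6% of the TIMP sum. The sums are thus mostly these 2 genes. Without the first shERCC4 replicate the shERCC4 means were 69.1 TPM for the MMPs and 1479 TPM for the TIMPs.

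Transcripts of the 3 TIMPs per transcript of the 5 MMP members were fewest in shXPC cells. The MMP sum leaves out MMP28, which had 44.2 TPM in shERCC4, 118 TPM in shERCC5 and 24.2 TPM in shCON cells. A ratio with MMP28 was not computed, so the place of each line relative to shCON holds for these 5 MMPs only. The ratio of the sums was 2.60 ± 0.17 in shXPC, 7.15 ± 0.16 in shXPA, 7.29 ± 0.64 in shERCC5, 12.9 ± 0.98 in shERCC6 and 21.1 ± 0.59 in shERCC4 cells, against 17.9 ± 0.46 in shCON cells. The libraries of shXPC, shXPA, shERCC5 and shERCC6 all lay below those of shCON, and those of shERCC4 all above, with a mean of 21.4 when the first replicate was left out. Without MMP14 and TIMP1, the ratio as a fold of shCON moved to 1.12 in shERCC6 cells, where it was 0.72 with them, and lay at 0.12 in shXPC cells, where it was 0.14. TIMP2 and MMP14 both take part in activating the MMP2 zymogen, and what their ratio means for activation was not tested. TIMP2 per MMP14 was 0.357 ± 0.019 in shXPA, 0.379 ± 0.031 in shXPC, 0.558 ± 0.048 in shERCC4, 0.226 ± 0.025 in shERCC5 and 0.532 ± 0.067 in shERCC6 cells, against 1.24 ± 0.05 in shCON cells. TIMP2 transcripts thus exceeded those of MMP14 in shCON cells and in no dNER library, where the ratio was at most 0.609. In shERCC4 cells it was 0.549 without the first replicate.

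**Figure D3:**
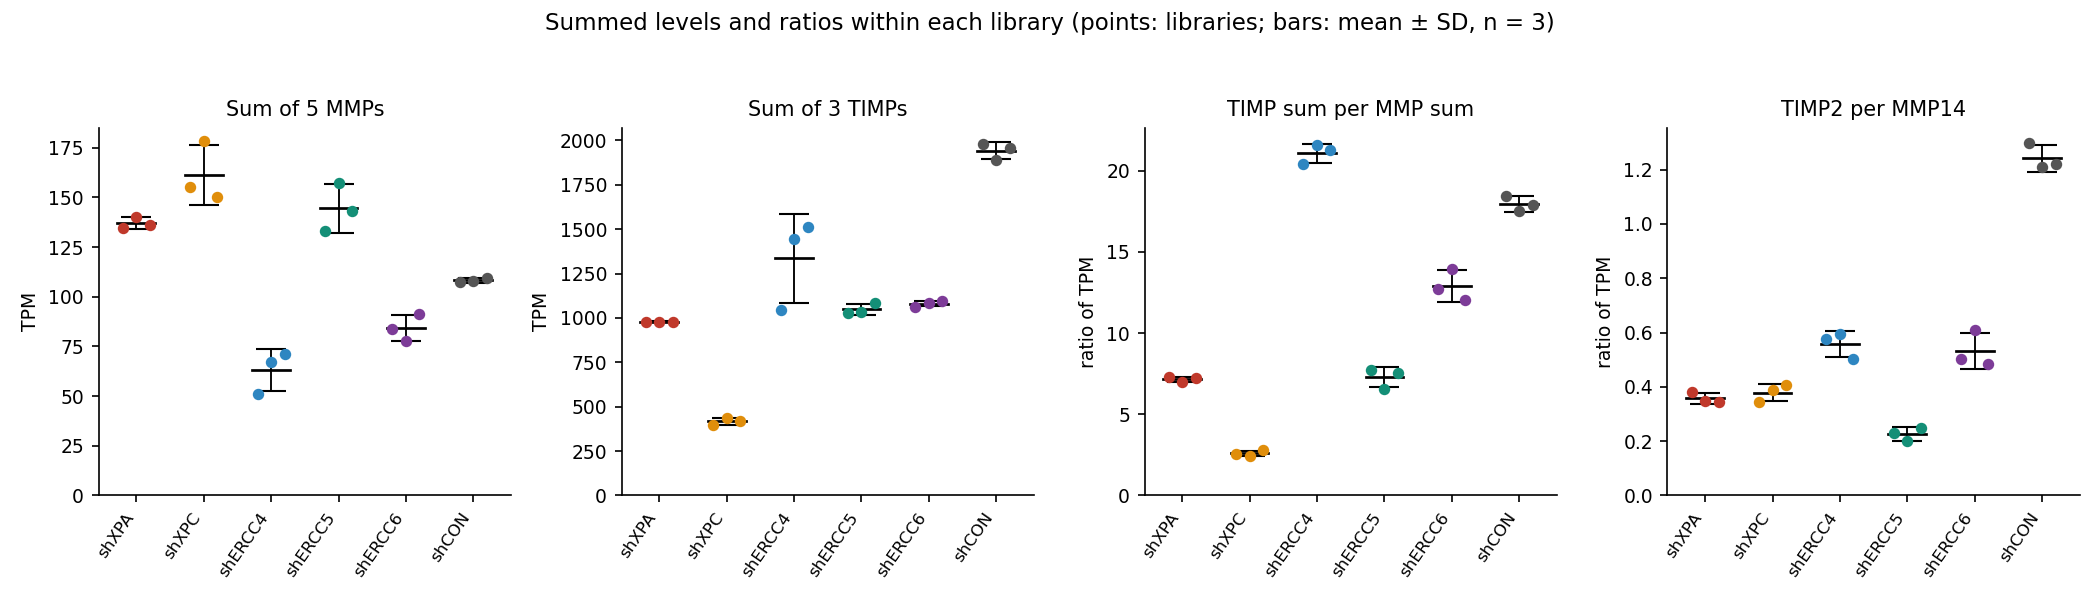
Summed TPM of 5 MMPs and of 3 TIMPs, the ratio of both sums, and TIMP2 per MMP14 (vertical axes from 0), by line; points are libraries, bars the mean and SD of 3 replicates. The TIMP to MMP ratio is lowest in shXPC (2.60) and highest in shERCC4 (21.1), and TIMP2 per MMP14 is above 1 only in the 3 shCON libraries.

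Other genes of the protease system were read from 8 lists, each described by counts with no set test, and 21 genes are named from them, all called in 1 direction in all 5 lines. All 21 were also called in shERCC4 cells without the first shERCC4 replicate. As they were chosen by calls on these same libraries, this is a description and no independent support. Of all genes tested, 2.01% were higher and 9.53% lower in all 5 lines. The counts of each list are for the mean of the 5 lines, where 28.6% of all genes were lower and 7.84% higher as deposited, and 11.9% were lower and 13.9% higher after scaling. Among 16 other MMPs, 11 were analysed and 8 tested, of which 2 were lower and 1 higher, and after scaling 1 was lower and 1 higher. MMP28, epilysin of epithelia, was higher in all 5 lines, with 105 ± 6.68 TPM in shXPA, 79.2 ± 5.21 in shXPC, 44.2 ± 13.4 in shERCC4, 118 ± 0.29 in shERCC5 and 83.2 ± 8.60 in shERCC6 cells, against 24.2 ± 2.30 TPM in shCON cells. This was above the mean of MMP14 in shERCC6 cells and below it in the other lines. Its log2 changes, between 0.82 (q = 0.000171) and 2.27 (q = 4.02e-09), stood above 0 under both scalings. MMP19 was lower in all 5 lines, at 0.496 to 1.11 TPM in the dNER lines against 1.96 ± 0.31 TPM in shCON cells, and after scaling in 3.

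Of 12 other inhibitors, 10 were analysed and 7 tested. RECK, a membrane-bound MMP inhibitor, had 1.03 to 2.18 TPM in the dNER lines against 3.58 ± 0.48 TPM in shCON cells. SPOCK1, a testican proteoglycan, had 5.76 to 13.5 TPM against 23.8 ± 2.12 TPM. Both were called lower in all 5 lines, and after scaling in 4 (RECK) and 3 (SPOCK1). For the mean of the 5 lines, 2 of the 7 tested inhibitors were lower and 0 higher, also after scaling. As deposited this is near the 28.6% of all genes that were lower, and the list median was -0.43 against -0.33 for all genes.

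The proteases and serpins that govern zymogen activation had 20 of 23 genes tested, of which 7 were lower and 3 higher in the mean of the 5 lines, beside 28.6% and 7.84% of all genes. After scaling 3 were lower and 3 higher. SERPINE2, a serpin that inhibits plasminogen activators and thrombin, had 5.47 ± 1.16 TPM in shXPC cells to 24.4 ± 2.84 TPM in shERCC6 cells, against 172 ± 5.52 TPM in shCON cells. PCSK5, a proprotein convertase, was at 1.28 to 1.73 TPM against 3.62 ± 0.11 TPM, and the cysteine protease CTSB at 272 to 332 TPM against 562 ± 6.37 TPM. SERPINE2, PCSK5 and CTSB were called lower in all 5 lines, and after scaling CTSB was called in 1 line only.

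ADAM and ADAMTS proteases are relatives of the MMPs. Of 7 ADAMs tested 3 were lower and 0 higher in the mean of the lines, beside 28.6% and 7.84% of all genes, and after scaling 2 were lower and 1 higher. ADAM12 had 0.693 to 3.26 TPM in the dNER lines against 8.82 ± 1.40 TPM in shCON cells, and ADAM19 had 0.0310 to 0.862 TPM against 2.30 ± 0.17 TPM. Of 6 ADAMTS genes tested 3 were lower and 0 higher under both scalings, namely ADAMTS1 (0.0937 to 1.17 TPM against 2.74 ± 1.01), ADAMTS7 (1.91 to 4.12 TPM against 10.2 ± 0.96), which cleaves cartilage oligomeric matrix protein, and ADAMTS15 (0.129 to 0.605 TPM against 1.27 ± 0.11). ADAM19 and ADAMTS15 passed the filter on low values only through shCON, with 1 and 0 of the 15 dNER libraries at 1 TPM or more, so their direction was fixed by the filter.

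A list of AP-1, ETS and RUNX transcription factors had 20 of 21 genes tested. AP-1 and ETS factors bind the kinds of motif found in the MMP7 promoter, whereas RUNX1 and RUNX2 bind another that was not searched. In the mean of the lines 11 of the 20 were lower, RUNX1 and RUNX2 among them, and 4 higher, beside 28.6% and 7.84% of all genes. After scaling 5 were lower and 4 higher, beside 11.9% and 13.9%. FOS, an AP-1 subunit, had 37.5 to 54.8 TPM in the dNER lines against 13.0 ± 2.91 TPM in shCON cells, and was higher in all 5 lines. FOSL1, another AP-1 subunit, had 12.6 to 34.2 TPM against 66.4 ± 1.40 TPM, and was lower in all 5. The epithelial ETS factor EHF was higher (59.0 to 234 TPM against 15.5 ± 1.43 TPM) and ETV5, an ETS factor of the PEA3 group, lower (4.62 to 22.4 TPM against 36.5 ± 3.58 TPM). FOS, FOSL1 and EHF were called in all 5 lines under both scalings, ETV5 in 3 lines after scaling.

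Proteins that MMPs cut had the lowest list median, -1.10 for the mean of the lines, with 11 of 17 tested lower and 1 higher, and after scaling 10 lower and 3 higher. LAMB3 and LAMA3, which encode laminin chains of the basement membrane, were lower in all 5 lines. LAMB3 had 74.5 to 132 TPM in the dNER lines against 304 ± 5.24 TPM in shCON cells, and LAMA3 had 39.2 to 99.7 TPM against 165 ± 6.24 TPM. Fibronectin, FN1, had 19.9 to 63.0 TPM against 754 ± 33.8 TPM, and was also lower in all 5 lines. After scaling, LAMA3 was called in 3 lines, and LAMB3 and FN1 in all 5.

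Of 10 tested genes whose products hold or take up MMPs at the surface, 5 were higher and 3 lower, with a list median of 0.43, and after scaling 5 were higher and 2 lower. The integrin chains ITGB1 (199 to 317 TPM against 538 ± 16.4 TPM) and ITGAV (29.1 to 35.0 TPM against 66.0 ± 3.57 TPM) were nonetheless lower in all 5 lines, and after scaling in 3 and 4 lines. Over the lists as a whole, 12 of the 21 named genes were called in all 5 lines after scaling and 9 in fewer. The 21 were named for their calls in all 5 lines, so this count describes them and is no independent support. ADAM19, among the 12, and ADAMTS15, among the 9, entered the test only through shCON. Scaling turned the list median for the mean of the lines to 0.13 for the other MMPs, where it had been -0.18, and to 0.08 for the activation list, where it had been -0.29.

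**Figure D4:**
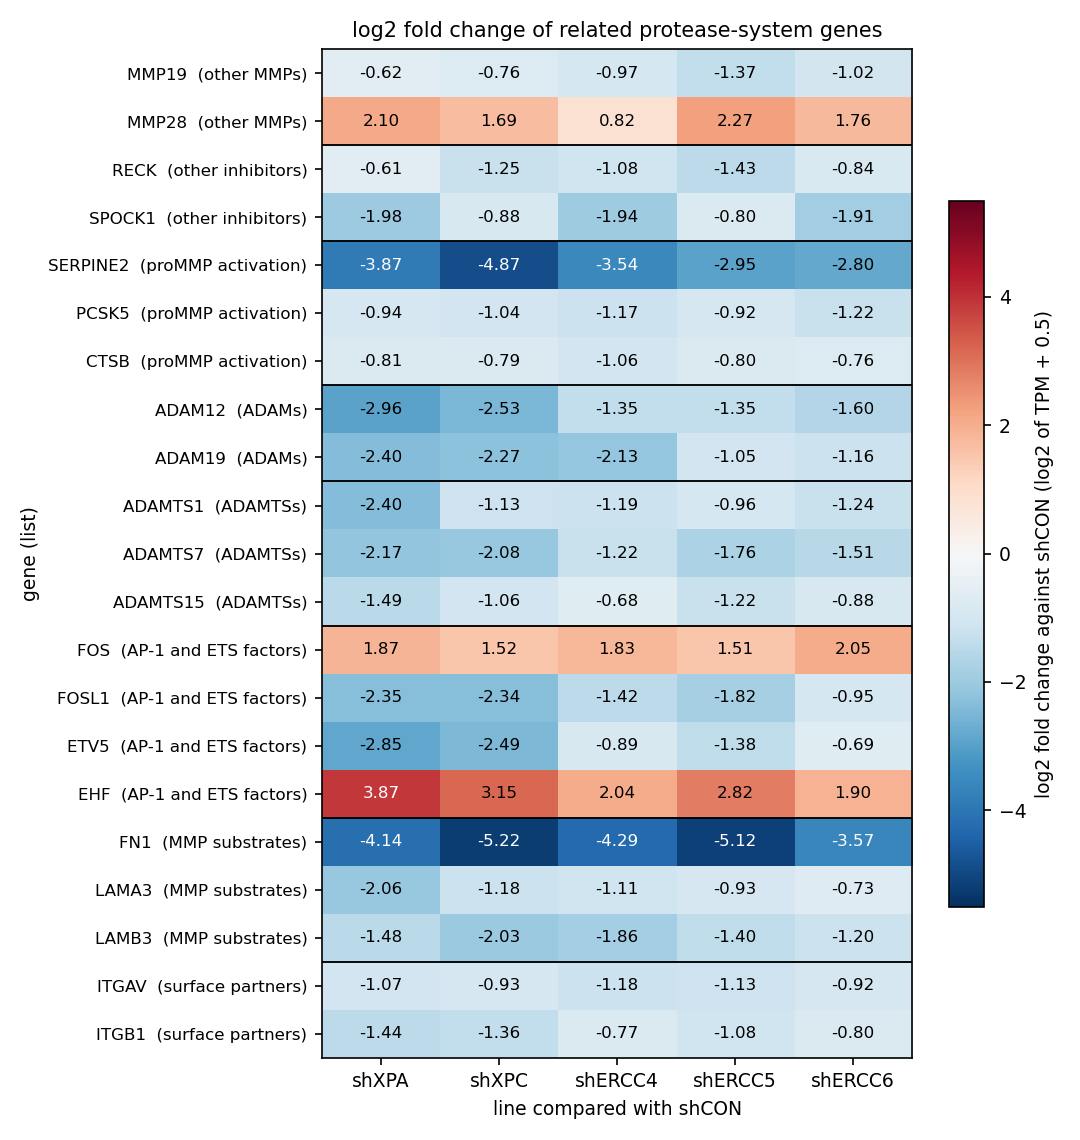
Log2 fold change against shCON of the 21 named genes of the protease system (rows, grouped by list) in each dNER line (columns); colour and printed number give the value, red higher and blue lower in the dNER line. MMP28, FOS and EHF are higher in all 5 lines, and FN1 and SERPINE2 have the most negative values.

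The genes most like each member were sought among 11996 genes (11997 for MMP9) that reached 5 TPM in at least 3 libraries, by Pearson's r of log2(TPM + 0.5) over the 18 libraries. The libraries fall into 6 lines and share scaling, so r mostly follows the line means, and no p is given. MMP9 was most like PLOD2 (r = 0.972) and NEXN (0.970). MMP2 was most like NRAS (0.946), CLIC1 (0.943) and RPE65 (0.929), and MMP7 most like BTG1 (0.922), SAT1 (0.914) and CTSS (0.905). MMP14 was nearest to CELSR1 (0.955), TOM1L2 (0.938) and LRP1 (0.931), the last a member of the uptake list. TIMP1 was nearest to RPA2 (0.966), SRPR (0.963) and ISOC1 (0.958), TIMP2 to MAP1B (0.981), SQSTM1 (0.979) and GFPT1 (0.977), and TIMP3 to EPPK1 (0.929), IGSF3 (0.913) and ADRBK1 (0.889). Within lines, after removing the line means, r was 0.80 for MMP14 with CELSR1 and 0.84 for MMP7 with BTG1, but 0.08 for MMP9 with PLOD2 and for MMP2 with NRAS.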

How the data were processed

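RNA of 6 MCF-10A lines with 3 replicates each was sequenced after rRNA depletion. The authors deposited 1 table of TPM per gene symbol for 18 libraries, made with kallisto (0.43.1 in the submitters' processing notes; the study's methods give another version) on hg38. The annotation, strand setting and handling of reads that fit several MMP genes are not given in the sources used here, so any such reads may be split. How alike the sequences of the members are was not measured. TPM keep no depth.

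Values were analysed as log2(TPM + 0.5) with R 4.3.3 and limma 3.58.1 (empirical Bayes with a trend, 12 residual degrees of freedom), for genes that reached 1 TPM in 3 or more libraries, in 1 fit of all 18 libraries. Storey's q used lambda 0.5. Each dNER line was compared with shCON and with the mean of the other 4 dNER lines, and the mean of the 5 with shCON. The fit was tested on simulated data. Alternatives were other pseudocounts, filters, scaling, Benjamini-Hochberg adjustment, separate fits, a replicate block and leaving out each library. Python 3.11.15 with matplotlib 3.10.9 served for figures. Positions come from GENCODE release 29 and sequences from RefSeq.

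All members were named, with up to 4 genes per list by the smallest q among those called in all 5 lines, the 3 genes most correlated with each member, and the 5 targeted genes. The members and lists were chosen with earlier results of these data known. A few genes that this rule names are not reported here.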

Additional observations from a re-analysis of the deposited data

Results flagged for a closer look

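Members were marked where 1 dNER line differed from the mean of the other 4 by the test of that difference itself (limma, q under 0.05, fold above 1.5). On the log2 scale these were, for MMP7, differences of 0.79 in shXPA, 3.51 in shXPC, -1.45 in shERCC4, -0.94 in shERCC5 and -1.92 in shERCC6 cells. MMP2 differed by -1.12 in shXPA, -0.85 in shERCC4, 1.10 in shERCC5 and 0.88 in shERCC6 cells. MMP14 differed by -0.82 in shERCC4 and 0.71 in shERCC5 cells. TIMP1 differed by -1.54 in shXPC and 0.75 in shERCC4 cells, and TIMP3 by -1.05 in shERCC4 cells. TIMP2 passed this test in no line. MMP9 did not either, but at 0 to 0.342 TPM in the dNER libraries it lay near the floor, so no likeness between lines can be read from that. The first shERCC4 replicate enters every value of that line, and the differences of shERCC4 without it are -1.19 for MMP7, -0.76 for MMP2, -0.69 for MMP14, 0.92 for TIMP1 and -1.07 for TIMP3, all past the test.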

How the results depend on the processing

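Of 77 member values (7 genes in 11 comparisons), all kept their direction and side of the threshold with a pseudocount of 1, without a filter, with Benjamini-Hochberg adjustment and with the replicate block, under which the count of lower members in shXPA cells stayed 4. MMP9 is among the 7 genes. Its direction against shCON was fixed by the filter and its dNER levels lay near the floor, so its values add no support here. The numbers do not pair the samples: same-numbered libraries of different lines deviated from their line means with a median r of 0.00704 (other numbers -0.00144). All 70 member values kept their direction and side in separate fits, and 66 of 66 at a filter of 5 TPM, where MMP9 dropped out. A pseudocount of 0.1 turned 2, MMP2 to 0.023 and MMP9 to 0.047 in shXPC cells against the other 4 lines.

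Median-of-ratios scaling kept 63. It raised the count of higher members to 2 in shXPA, 1 in shERCC5 and 1 in the mean of the 5 lines. It turned MMP2 in shERCC5 (0.10), MMP14 in shXPC (0.44), TIMP3 in shXPA (0.23) and TIMP3 in shXPC cells (0.41) against shCON, and against the other 4 lines, in shXPC cells, MMP2 (0.14), MMP9 (0.021), MMP14 (0.062) and TIMP2 (0.0071). It also moved the counts over all genes against shCON, to 3197 higher and 2650 lower in shXPA (1955 and 5065 as deposited), 3101 and 2539 in shXPC (1620 and 6218), 1640 and 1740 in shERCC4 (717 and 5055), 2690 and 2082 in shERCC5 (1633 and 4636), 1732 and 1702 in shERCC6 (1068 and 3220) and 2280 and 1950 for the mean of the 5 lines (1285 and 4691). Against the other 4 lines, 743 genes were lower in shXPC (1297 as deposited), and 1046 higher and 1608 lower in shERCC6 (1974 and 1000). A filter of 5 TPM left 1086 higher in shXPA (1715) and 594 lower in shERCC6 (1000) there.

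Leaving out each library in turn kept 822 of 843 values. The ranges that crossed 0 were -0.15 to 0.063 (MMP2, shXPC against the other 4 lines), -0.066 to 0.034 (MMP9, same comparison), -0.046 to 0.070 (MMP9, shERCC5 against the other 4), -0.16 to 0.019 (MMP14, shXPC against shCON) and -0.0035 to 0.042 (MMP14, mean of the 5 lines). The count of higher members in shERCC5 cells ranged from 0 to 1, and MMP9 was not tested when any 1 shCON library was left out. Without the most abundant member of each side, the TIMP to MMP ratio as a fold of shCON was 0.59 in shXPA, 0.12 in shXPC, 1.06 in shERCC4, 0.59 in shERCC5 and 1.12 in shERCC6 cells. The cause of these shifts was not tested beyond that construction, and no interval for counting error could be given.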
